A study of Mus musculus with 23 samples.

Results

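The 36 genes described here are interferon-stimulated genes, a set of named genes whose transcription is known to be switched on by interferons. They were listed by name, with earlier results of these data already known, and all 36 were among the 22350 genes counted in the study. The study asked how loss of Rptor, which encodes the mTORC1 component Raptor, changes the identity and the translation of intestinal stem cells (ISCs), and it measured mRNA by RNA-seq and ribosome footprints by Ribo-seq. Footprints are the stretches of mRNA that a ribosome protects from digestion. Their count in a gene reports how many ribosomes sit on its mRNA, and footprints relative to mRNA give the translation efficiency (TE).

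Interferons are secreted when cells sense foreign or misplaced nucleic acid. Type I and type III interferons signal through JAK kinases to a complex that holds STAT2 and IRF9 and binds a sequence called the interferon-stimulated response element (ISRE) before its target genes. Type II interferon acts through a different sequence, the gamma-activated site (GAS), and induces IRF1 and guanylate-binding proteins. The products of these genes sense viral RNA, degrade it, block its translation or hold back virus particles. In the gut, epithelial cells respond mainly to type III interferon and immune cells mainly to type I.

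All animals and organoids were of the C57BL/6 strain. RNA-seq was made on WT organoids (VillinCre.ERT2.RPL22.HA, 2 lines with 2 technical libraries each), on Rptor fl/fl organoids (VillinCre.ERT2.Rptor.fl/fl in the labels, 2 lines with 2 technical libraries each) and on stem cell enriched (SCe) organoids (VillinCre.ERT2.RPL22.HA, 3 cultures), which were grown with 10 μM CHIR 99021, an inhibitor of GSK3 that activates WNT signalling, and 1.5 mM valproic acid, an inhibitor of histone deacetylases. Ribo-seq of organoids compared VillinCre.ERT2.Rptor.fl/fl.RPL22.HA organoids with SCe organoids, 3 cultures each, with no WT culture in normal medium. Ribo-seq of mice was made on small intestine and compared Rptor fl/fl mice (Lgr5Cre.ERT2.Rptor.fl/fl.RPL22.HA, n = 3) with WT mice (Lgr5Cre.ERT2.RPL22.HA, n = 3). The Villin promoter drives Cre in the whole intestinal epithelium and the Lgr5 promoter in ISCs. RPL22.HA is a ribosomal protein that gains an HA tag where Cre acts, so that tagged ribosomes can be pulled down. The labels call all groups but SCe untreated, whereas the methods of the study describe Cre induction with tamoxifen, with mice of 8 to 12 weeks and both sexes sampled 24 h after injection. No group received an interferon or a virus in the labels.

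RNA-seq lines and cultures held between 27439432 and 67598842 counts, organoid Ribo-seq between 1106157 and 8257453 and mouse Ribo-seq between 772034 and 8238353, so that low genes are far less precise in Ribo-seq. Levels are given as CPM, counts scaled to a common library size with TMM factors over all libraries of an assay, while each test used the factors of its own libraries. Where groups are said not to overlap, this describes the few samples per group and is not a test. The share of all genes that separate in a single comparison was not counted. Nothing in the labels says that lines or cultures of a group came from separate animals, so that p-values in organoids measure only the spread between these samples. Rptor mRNA was 51.5 and 47.9 CPM in WT lines, 14.8 and 15.5 CPM in Rptor fl/fl lines and 53.7 to 60.8 CPM in SCe cultures. Rptor footprints overlapped between the organoid groups, at 15.9 to 18.7 CPM in cultures labelled Rptor fl/fl and 15.2 to 41.8 CPM in SCe cultures (log2 difference −0.53 ± 0.34 (SE), adjusted p = 0.318), so that these Ribo-seq cultures are called "labelled Rptor fl/fl" throughout. In mice, Rptor footprints were 39.5 to 44.5 CPM in WT and 32.5 to 36.7 CPM in Rptor fl/fl (adjusted p = 0.15). Organoids expressed epithelial markers and almost none of other cell types: the 20 leukocyte markers summed to 3.08 to 5.98 CPM in RNA-seq, with the pan-leukocyte gene Ptprc at most at 0.350 CPM, whereas the 7 epithelial markers summed to 4256 to 8418 CPM. The mouse pulldowns held footprints of many cell types: 685 to 823 CPM summed over the leukocyte markers, 883 to 1325 CPM over 6 stromal markers and 1109 to 1308 CPM over 4 smooth muscle markers, and Lgr5 itself was at 6.29 to 45.6 CPM. In such bulk samples, fewer cells of a type and less RNA per cell cannot be told apart.

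RefSeq promoter windows (GRCm38.p6, 250 bases before to 50 after a start) were given for 26 of the 36 members, in 33 windows. An ISRE-like motif, GAAA and GAAA with NN between them on either strand (N is any base), occurred in 15 of these 33 windows (45.5%) and in 3.44% of all 32851 windows. A GAS-like motif, TTCNNNGAA, which reads the same on both strands, occurred in 8 of the 33 windows (24.2%) and in 8.30% of all windows, and the motifs were counted independently even where they overlap. Irf7, Irf9, Oasl1, Oasl2, Ifi44 and Xaf1 had windows without either motif. The following stretches of 30 bases are read along the gene's own strand for the 7 members that rose in SCe organoids and carry the ISRE-like motif, with every match inside the stretch in capitals. A match is a description of the letters and not a measured binding site.

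Bst2, chr8:71537577-71537606, minus strand: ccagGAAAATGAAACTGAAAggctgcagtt

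Isg15, chr4:156200865-156200894, minus strand: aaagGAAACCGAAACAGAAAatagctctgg

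Cxcl10, chr5:92349083-92349112, minus strand: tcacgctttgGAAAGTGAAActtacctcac

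Oas1a, chr5:120907526-120907555, minus strand: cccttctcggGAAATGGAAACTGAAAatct

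Ifit3, chr19:34583397-34583426, plus strand: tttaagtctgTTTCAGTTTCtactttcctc

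Gbp7, chr3:142530273-142530302, plus strand: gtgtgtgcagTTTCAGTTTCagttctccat

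Rsad2, chr12:26456553-26456582, minus strand: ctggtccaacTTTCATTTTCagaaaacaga

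The stretches of Bst2, Isg15 and Oas1a held 2 overlapping matches each and the others 1. In Bst2, Isg15, Cxcl10 and Oas1a the matches lay on the gene's strand, and in Ifit3, Gbp7 and Rsad2 on the opposite strand. The first base in capitals lay 20 bases before the start in Oas1a, 53 in Gbp7, 72 in Isg15, 120 in Rsad2, 122 in Ifit3, 130 in Bst2 and 213 in Cxcl10. Of the 12 members higher in SCe than in WT organoids, 9 had a window, and 7 of these 9 carried the motif. Among the other members with a window, 8 of 17 carried it. The GAS-like motif occurred in 5 of the same 9 members and in 3 of the other 17. Whether either motif plays a part in the differences was not tested.

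In WT organoids the members were expressed at low levels. By TPM, which accounts for transcript length, the highest were Ifi35 at 27.1 ± 2.37 TPM (SD, n = 2 lines), Irf1 at 27.0 ± 3.94, Irf8 at 18.6 ± 0.0839, Bst2 at 11.9 ± 1.60, Oasl1 at 10.2 ± 2.74 and Ifih1 at 7.47 ± 0.592 TPM. Ifi35 and Irf1 did not differ beyond their spread. Below them came the signalling proteins Stat2 at 7.01 ± 0.397 TPM, Irf9 at 6.87 ± 0.758 TPM and Irf7, which amplifies the response, at 4.64 ± 0.0207 TPM. Members under 1 TPM included Isg15 (0.528 ± 0.0843), Rsad2 (0.260 ± 0.00641), Usp18 (0.114 ± 0.0237), Ifit3 (0.0816 ± 0.0282) and Mx2 (0.0526 ± 0.0300). Gbp3 and Gbp4 had no count in either WT line. None of 13 interferon genes (type I, II and III) exceeded 3 counts in any RNA-seq line or culture.

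SCe and WT organoids have the same genotype in the labels and differ in the medium. Of the 36 members, 32 had enough counts to be tested. Of these, 12 were higher and 3 lower in SCe organoids at an adjusted p under 0.05 in edgeR's quasi-likelihood test with Benjamini-Hochberg adjustment over all 14925 genes tested, of which 22.4% were called higher and 19.9% lower. The median log2 difference of the members was 1.20, beside 0.023 over all genes tested. Zbp1, Usp18, Ifit3, Mx2, Gbp6 and Ifi44 had too few counts to be tested between Rptor fl/fl and WT organoids. They were tested here with the SCe cultures, and all had log2 differences above 0. Zbp1, Ifit3 and Mx2 are among the 12 called higher, so the count and the median lean on members admitted through SCe counts.

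**Figure D1:**
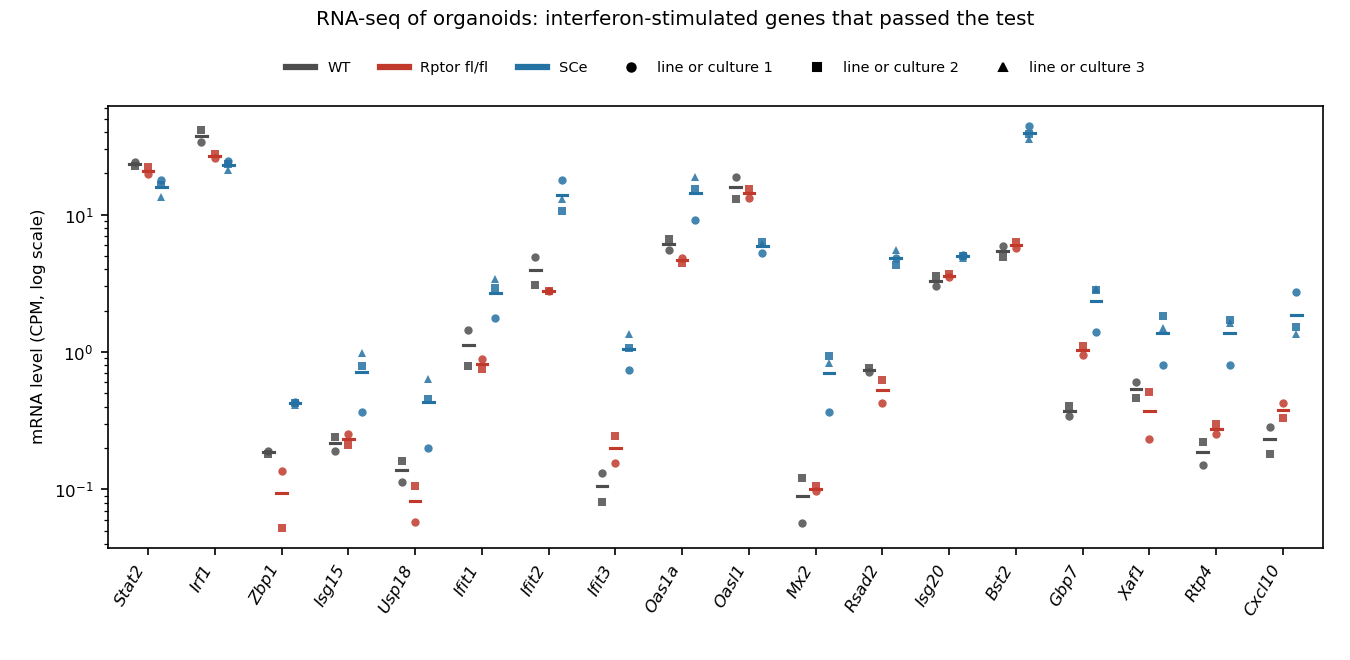
mRNA level in CPM (log axis) of the 18 members that passed the test in at least 1 RNA-seq comparison, in each WT line, Rptor fl/fl line and SCe culture. Points are lines or cultures and bars are group means. Bst2 sits at 35.4 to 44.4 CPM in SCe cultures and at 4.94 to 6.33 CPM in all other lines, and Oasl1 shows the opposite order.

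Of the 5 antiviral effectors 4 rose. Bst2 encodes tetherin, which holds budding viruses at the cell surface. Its mRNA was 5.95 and 4.94 CPM in the WT lines and 44.4, 38.8 and 35.4 CPM in the SCe cultures, a 7.36-fold difference (log2 2.88 ± 0.15 (SE), adjusted p = 0.00116), and by TPM it became the highest member, at a mean of 85.5 TPM. Rsad2 encodes viperin, a radical SAM enzyme that makes a chain-terminating nucleotide. It was 0.718 and 0.766 CPM in WT and 4.81, 4.27 and 5.49 CPM in SCe organoids (log2 2.73 ± 0.23, adjusted p = 0.00199). Mx2, a dynamin-like GTPase, was 0.0567 and 0.121 CPM in WT and 0.368, 0.926 and 0.826 CPM in SCe organoids (log2 3.01 ± 0.64, adjusted p = 0.0181). Isg20, an RNA exonuclease, differed less, from 3.04 and 3.55 CPM to 5.08, 4.99 and 4.87 CPM (log2 0.62 ± 0.17, adjusted p = 0.0398). In these 4 genes, picked by the test, every SCe culture lay above both WT lines. Mx1 overlapped between the groups, at 1.76 and 1.67 CPM against 2.04, 1.38 and 1.94 CPM (log2 0.08 ± 0.27, adjusted p = 0.838).

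The IFIT proteins bind foreign RNA and block its translation. Ifit2 was 4.87 and 3.07 CPM in WT and 17.7, 10.7 and 13.0 CPM in SCe organoids (log2 1.81 ± 0.32, adjusted p = 0.0112). Ifit3 rose from 0.132 and 0.0807 CPM to 0.736, 1.07 and 1.34 CPM (log2 3.30 ± 0.47, adjusted p = 0.00631). Its near-identical copy Ifit3b can share its reads, and with both summed the log2 difference was 1.98 (adjusted p = 0.0189). Ifit1, at 1.45 and 0.787 CPM in WT and 1.77, 2.91 and 3.37 CPM in SCe organoids, did not overlap and did not pass the test (log2 1.28 ± 0.44, adjusted p = 0.0673).

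Isg15 encodes a ubiquitin-like modifier and Usp18 the protease that removes it. Isg15 was 0.189 and 0.242 CPM in WT and 0.368, 0.785 and 0.980 CPM in SCe organoids, just past the threshold (log2 1.76 ± 0.53, adjusted p = 0.0495). Usp18 was 0.113 and 0.161 CPM against 0.201, 0.455 and 0.636 CPM (log2 1.69 ± 0.60, adjusted p = 0.077). For both, SCe culture 1 was the culture nearest to WT.

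The OAS enzymes make a short oligonucleotide messenger when they sense double-stranded RNA. Oas1a rose from 5.51 and 6.68 CPM to 9.20, 15.3 and 18.7 CPM (log2 1.27 ± 0.34, adjusted p = 0.0349), and summed with its near-identical neighbour Oas1g the adjusted p was 0.0512. Oasl1 moved the other way, from 18.9 and 13.1 CPM in WT to 5.22, 6.33 and 6.14 CPM in SCe organoids (log2 −1.41 ± 0.20, adjusted p = 0.00627). OASL1 is known as an inhibitor of Irf7 translation and has no synthase activity. Oas1g (log2 1.33 ± 0.70, adjusted p = 0.182), Oas3 (0.86 ± 0.37, 0.121) and Oasl2 (1.82 ± 0.87, 0.151) did not pass, and Oas2 had too few counts to be tested, at 0.0378 and 0.101 CPM in WT and 0.100 to 0.327 CPM in SCe organoids.

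Among the sensors of nucleic acid, only Zbp1, which recognises Z-form RNA and DNA and triggers cell death, passed the test, from 0.189 and 0.181 CPM to 0.435, 0.424 and 0.413 CPM (log2 1.20 ± 0.32, adjusted p = 0.0341). The RNA sensor genes Ddx58 (RIG-I), at 11.4 and 16.2 CPM in WT and 22.0, 18.6 and 20.8 CPM in SCe organoids, and Ifih1 (MDA5), at 22.4 and 25.6 CPM and 25.0, 29.0 and 28.3 CPM, had adjusted p-values of 0.0518 and 0.173. Dhx58 (LGP2) was 1.36 and 1.67 CPM in WT and 1.44, 4.65 and 2.87 CPM in SCe organoids (adjusted p = 0.185). Its groups overlapped through SCe culture 1.

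None of the 5 transcription factors of the interferon response was called higher, and 2 were lower. Stat2 fell from 24.3 and 22.7 CPM to 17.7, 16.3 and 13.3 CPM (log2 −0.55 ± 0.14, adjusted p = 0.0317). Irf1 fell from 33.7 and 41.2 CPM to 24.4, 23.5 and 21.0 CPM (log2 −0.68 ± 0.12, adjusted p = 0.0111). Irf8 was 37.0 and 38.4 CPM in WT and 22.4, 31.4 and 27.6 CPM in SCe organoids (adjusted p = 0.0699). Irf7 (log2 −0.01 ± 0.41, adjusted p = 0.983) and Irf9 (0.22 ± 0.33, 0.623) had SCe cultures on both sides of the WT lines.

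Guanylate-binding proteins attack the membranes of intracellular pathogens. Gbp7 rose from 0.340 and 0.403 CPM to 1.40, 2.84 and 2.86 CPM (log2 2.69 ± 0.45, adjusted p = 0.00923). The other members of this family were near the limit of detection: Gbp6 reached 0.482 CPM at most, Gbp2 0.103 CPM, Gbp3 0.155 CPM and Gbp4 0.0172 CPM in any SCe culture. Of the remaining members, Cxcl10, a chemokine that attracts T cells, rose from 0.283 and 0.181 CPM to 2.74, 1.51 and 1.34 CPM (log2 3.00 ± 0.50, adjusted p = 0.00938). Rtp4, an antiviral protein that also acts as a receptor chaperone, rose from 0.151 and 0.222 CPM to 0.802, 1.71 and 1.62 CPM (log2 2.91 ± 0.51, adjusted p = 0.0104). Xaf1, a proapoptotic protein, was 0.604 and 0.464 CPM in WT and 0.802, 1.82 and 1.50 CPM in SCe organoids (log2 1.39 ± 0.45, adjusted p = 0.0591). Ifi35 (21.4 and 24.5 CPM against 11.7, 25.1 and 22.8 CPM), the ADP-ribosyltransferase gene Parp14 (log2 0.22 ± 0.27, adjusted p = 0.546) and Ifi44 (1.20 ± 0.67, 0.204) did not pass.

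The 3 SCe cultures were not alike. SCe culture 1 had the lowest of the 3 levels in 22 of the 32 tested members (68.8%), beside 40.4% of the 12792 genes with at least 10 counts in every WT line and SCe culture. In 10 members (31.2%) its level was below 50% of that of both other cultures, beside 4.27% of the same 12792 genes. The members were not held to that floor of 10 counts, so these shares compare unlike genes. SCe culture 1 was also the shallowest, at 27439432 counts against 67598842 and 59403999. Bst2, Ifit2 and Cxcl10 were among the 9 members highest in it. The 7 enterocyte markers summed to 245 CPM in SCe culture 1 and to 6062 and 7090 CPM in the others, against 7024 and 7680 CPM in WT lines. Whether these marker levels play a part in the results was not tested. Without SCe culture 1, 24 members were higher and 4 lower than in WT, beside 31.9% and 32.2% of all genes tested in that setting, and the median log2 difference was 1.48. Leaving out WT line 1 or 2 left 4 and 2 members higher, beside 7.63% and 7.49% of all genes, and leaving out SCe culture 2 or 3 left 7 each, beside 16.3% and 15.4%. Bst2, Rsad2 and Oasl1 passed under every alternative tried. Markers of other cell types also moved with the medium. Goblet cell markers summed to 1604 and 1696 CPM in WT and 235 to 461 CPM in SCe organoids, with 3 of 5 called lower, and epithelial markers to 7871 and 8241 CPM and 4256 to 4735 CPM, with 3 of 7 called lower. Of the stem cell markers 2 of 5 were lower and of the enterocyte markers 1 of 7. With all samples, 19.9% of all genes were called lower and 22.4% higher, and 1 of 7 is below either share. The smooth muscle gene Des was at 0 in both WT lines and at 0.516 to 0.736 CPM in SCe organoids, and was called higher. The 6 stromal markers summed to at most 0.491 CPM in WT and to 3.96 to 6.25 CPM in SCe organoids, with Pdgfra and Col1a1 called higher, Dcn at most at 0.0688 CPM and Lum at 0, while the 20 leukocyte markers summed to 4.26 and 5.74 CPM in WT and 3.08 to 5.98 CPM in SCe organoids, with 1 of 4 tested called higher and 1 lower. The part of these markers in the results was not tested.

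**Figure D2:**
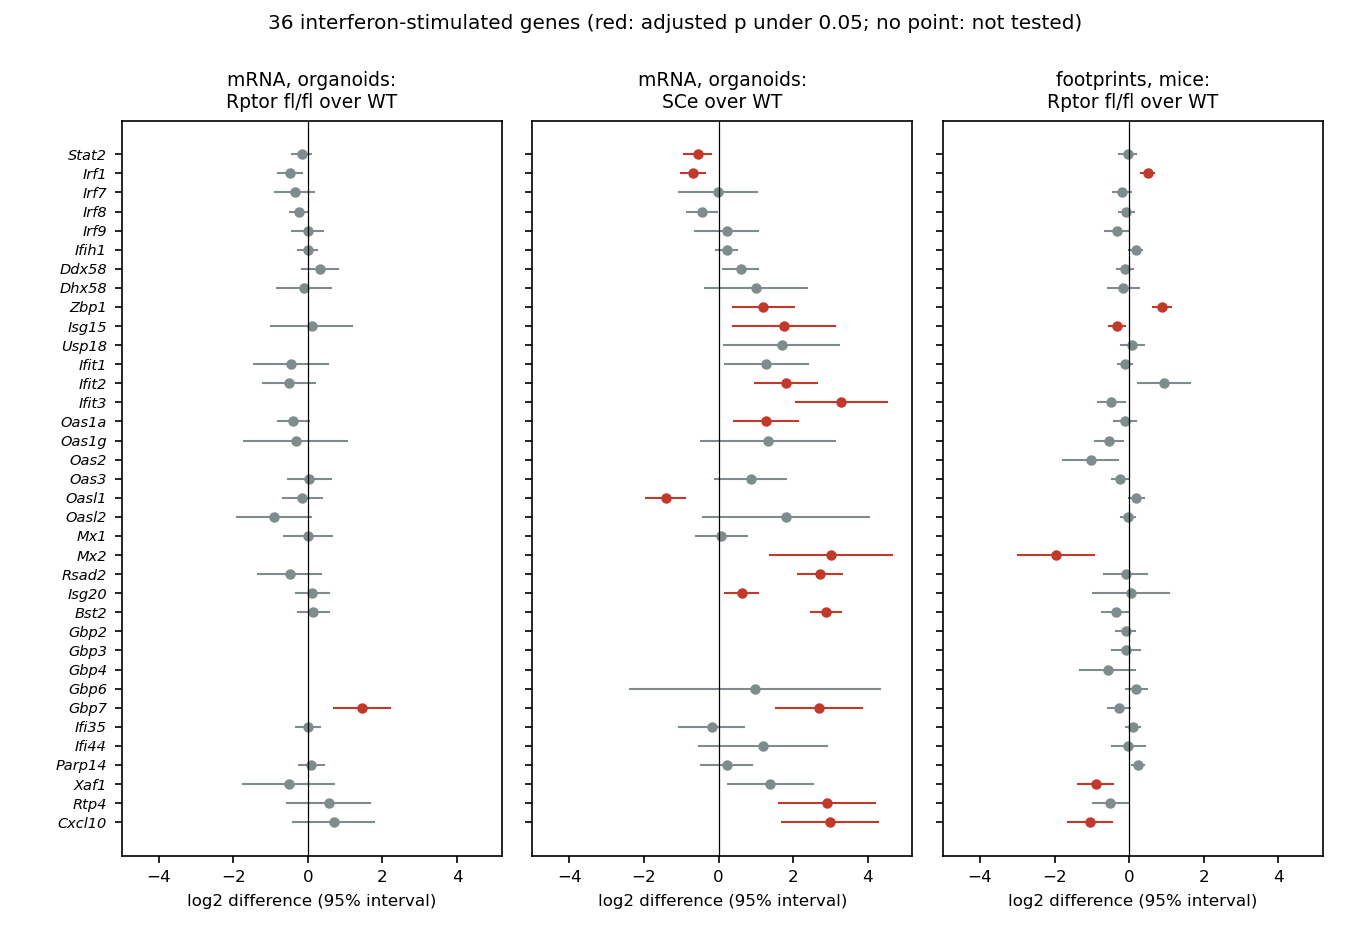
log2 difference with 95% interval of each member tested, for mRNA of Rptor fl/fl over WT organoids (left), mRNA of SCe over WT organoids (middle) and footprints of Rptor fl/fl over WT mice (right). Red points passed an adjusted p of 0.05: 1 on the left, 15 in the middle and 6 on the right.

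Few members differed with the genotype in organoids. In RNA-seq of Rptor fl/fl against WT organoids, 26 members were tested, 1 was called higher and 0 lower, beside 11.6% and 11.0% of all 14131 genes tested. The median log2 difference was −0.06, beside −0.0049 over all genes. At an unadjusted p under 0.05 there were 1 higher and 1 lower, beside 19.7% and 20.2% of all genes, and DESeq2 called 0 higher and 1 lower, beside 13.4% and 12.9%. Without WT line 1, 0 were higher and 1 lower, beside 3.74% and 2.76%. The member called was Gbp7, at 0.340 and 0.403 CPM in WT and 0.948 and 1.1 CPM in Rptor fl/fl lines (log2 1.46 ± 0.29, adjusted p = 0.0304). Its counts were low, at 18 to 63 per line, and it did not pass when either line of either group was left out (adjusted p between 0.0788 and 0.152). Gbp3 had 0 counts in both WT lines and a mean of 0.122 CPM in Rptor fl/fl lines, at least 2.08-fold higher against a floor of 3 counts per line.

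Irf1 was 33.7 and 41.2 CPM in WT and 25.8 and 27.7 CPM in Rptor fl/fl lines, without overlap (log2 −0.49 ± 0.12, adjusted p = 0.0516). Irf8 was 30.1 and 34.1 CPM in Rptor fl/fl lines (adjusted p = 0.135), and Stat2 19.8 and 22.1 CPM (adjusted p = 0.254). Ifi35 (21.0 and 24.9 CPM), Ifih1 (23.5 and 24.2 CPM), Ddx58 (17.5 and 17.2 CPM), Oasl1 (13.3 and 15.4 CPM) and Isg20 (3.50 and 3.67 CPM) had adjusted p-values of at least 0.246. Of the members higher in SCe organoids only Gbp7 was called in this comparison, which shares its WT libraries with the one before, and Zbp1 (0.135 and 0.0525 CPM), Ifit3 (0.155 and 0.245 CPM) and Mx2 (0.0968 and 0.105 CPM) had too few counts to be tested. Bst2 was 5.67 and 6.33 CPM (log2 against WT 0.14 ± 0.16), Rsad2 0.426 and 0.630 CPM, Ifit2 2.79 and 2.80 CPM, Oas1a 4.86 and 4.46 CPM, and Isg15 0.252 and 0.210 CPM. The 95% intervals were wide for low genes: that of Rsad2 ran from −1.33 to 0.36 and that of Cxcl10 from −0.39 to 1.77 on the log2 scale. Cell type markers differed between these lines as well, beside 11.6% of all genes called higher and 11.0% lower. Of the stem cell markers 4 of 5 and of the Paneth cell markers 5 of 6 were called lower, and of the goblet cell markers 3 of 5 higher. Of the enterocyte markers 1 of 7 was lower, and of the epithelial markers 1 of 7 was higher and 1 lower. None of the 6 leukocyte markers tested was called. The part of these markers in the results was not tested.

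The direct RNA-seq comparison of Rptor fl/fl with SCe organoids, the pair used for Ribo-seq, shares its libraries with both comparisons above. Of 32 members tested, 12 were lower and 1 higher in Rptor fl/fl organoids, beside 21.8% and 21.0% of all 15103 genes, and the median log2 difference was −1.33, beside −0.014 over all genes. The 32 again include Zbp1, Usp18, Ifit3, Mx2, Gbp6 and Ifi44, which in RNA-seq were tested only with SCe cultures. The largest falls were those of Rsad2 (log2 −3.19 ± 0.30, adjusted p = 0.00214), Mx2 (−2.80 ± 0.56, 0.0147) and Bst2 (−2.72 ± 0.14, 0.00105). Ifit1 (0.890 and 0.752 CPM, log2 −1.71 ± 0.37, adjusted p = 0.0186), Usp18 (0.0581 and 0.105 CPM, −2.39 ± 0.66, 0.0374) and Xaf1 (0.232 and 0.507 CPM, −1.89 ± 0.55, 0.0429) also passed here. Ifit2, Ifit3, Oas1a, Zbp1, Rtp4 (0.252 and 0.297 CPM) and Cxcl10 (0.426 and 0.332 CPM) were the other members lower in Rptor fl/fl organoids, with log2 differences from −2.38 to −1.63. The member higher in them was Oasl1 (log2 1.29 ± 0.16, adjusted p = 0.0037). Leaving out Rptor fl/fl line 1 or 2 left 3 members lower, beside 8.57% and 8.37% of all genes. Leaving out SCe culture 1 gave 23, beside 30.2%, and leaving out SCe culture 2 or 3 left 8, beside 15.6% and 14.5%. Here too markers were called, beside the same 21.0% of all genes higher and 21.8% lower, and 1 of 7 is below either share. Goblet cell (4 of 5), epithelial (3 of 7) and enterocyte markers (1 of 7) were called higher, and Paneth cell (2 of 6), stromal (2 of 2) and smooth muscle markers (1 of 2) lower. Of 5 stem cell markers 2 were higher and 2 lower, and of 9 leukocyte markers tested 3 were higher and 1 lower. Their part in the results was not tested.

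In Ribo-seq of organoids only 14 members had enough footprints to be tested, because most were near 0. Mx1, Gbp2 and Gbp3 had no footprint in any of the 6 libraries, and Mx1 mRNA was 1.38 to 2.04 CPM. The reason for the missing Mx1 footprints was not tested. In cultures labelled Rptor fl/fl against SCe cultures, 3 members were lower and 1 higher, beside 9.84% and 6.63% of all 10817 genes tested. The median log2 difference of the 14 was 0.27, beside −0.023 over all genes.

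Bst2 footprints were 18.6, 16.3 and 13.3 CPM in cultures labelled Rptor fl/fl and 109, 52.9 and 47.0 CPM in SCe cultures (log2 −2.12 ± 0.34, adjusted p = 0.00482), without overlap. Ifit2 footprints were 1.66, 2.70 and 1.09 CPM against 5.41, 6.82 and 8.07 CPM (log2 −1.92 ± 0.48, adjusted p = 0.0272). Both genes were also lower in mRNA. Ddx58 footprints were 11.1, 16.8 and 14.4 CPM against 22.7, 23.0 and 35.1 CPM (log2 −0.97 ± 0.26, adjusted p = 0.0361), while its mRNA was 17.5 and 17.2 CPM against 22.0, 18.6 and 20.8 CPM and did not pass (log2 −0.24 ± 0.11, adjusted p = 0.141). Ifi35, whose product binds the interferon-induced protein NMI, was the member with more footprints in cultures labelled Rptor fl/fl, at 35.2, 41.6 and 42.4 CPM against 20.0, 25.6 and 18.4 CPM (log2 0.92 ± 0.21, adjusted p = 0.0191). Bst2 passed under every alternative. Leaving out any 1 culture labelled Rptor fl/fl left Bst2 as the 1 member lower and 0 higher, beside 3.93% to 5.34% of all genes lower, and leaving out SCe culture 1, 2 or 3 gave 3, 2 and 1 lower and 1, 1 and 2 higher, beside 8.07% to 13.4% lower and 6.14% to 10.4% higher.

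**Figure D3:**
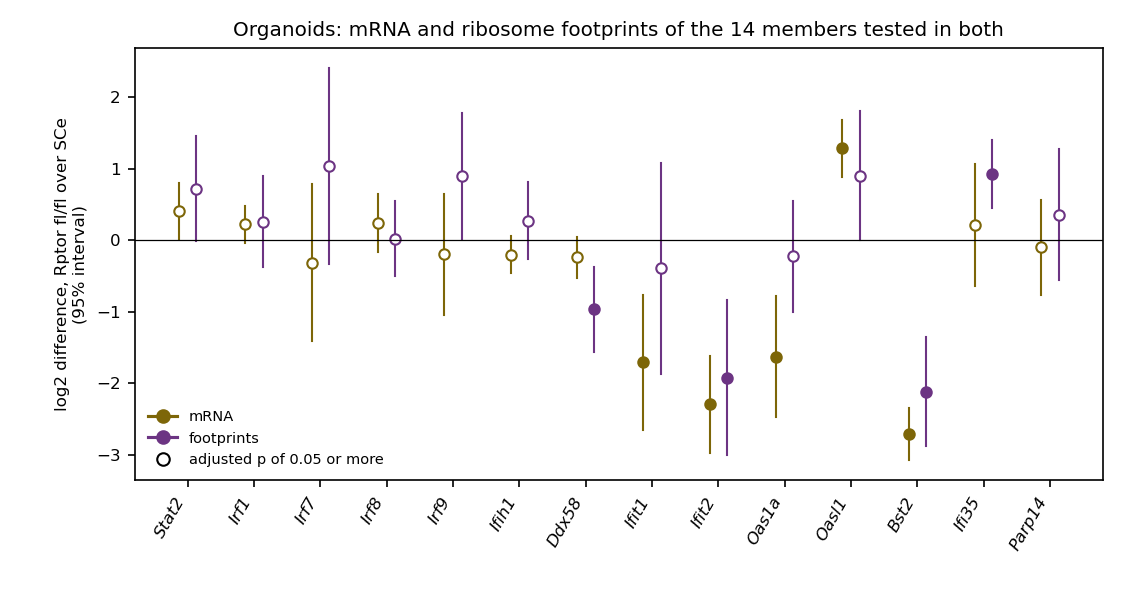
log2 difference of Rptor fl/fl over SCe organoids with 95% interval, for mRNA and for footprints of the 14 members tested in both (filled: adjusted p under 0.05). Bst2 and Ifit2 lie below 0 in both assays, and Ifit1 and Oas1a are lower in mRNA with footprint intervals that include 0.

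The remaining members tested did not pass in footprints. Irf1 was 23.6, 32.2 and 27.1 CPM against 22.7, 33.3 and 16.1 CPM (adjusted p = 0.566), Irf8 47.0, 51.2 and 54.5 CPM against 41.1, 70.0 and 42.2 CPM (0.964), and Ifih1 36.2, 25.9 and 35.9 CPM against 20.6, 29.9 and 30.2 CPM (0.463). These groups overlapped. Stat2 was 19.7, 19.4 and 19.6 CPM against 5.95, 17.1 and 13.1 CPM (adjusted p = 0.162), and Oasl1 17.4, 12.5 and 15.7 CPM against 4.87, 4.27 and 12.7 CPM (0.155). Oas1a was 7.47, 10.5 and 8.39 CPM against 12.4, 12.8 and 6.92 CPM (log2 −0.23 ± 0.34, adjusted p = 0.687). Several members with raised mRNA in SCe organoids had at most 10 footprints in any culture and were not tested. Rsad2 was 1.66, 0.476 and 0.365 CPM in cultures labelled Rptor fl/fl and 2.16, 1.71 and 2.08 CPM in SCe cultures, without overlap. Cxcl10 was at most 0.166 CPM against 4.87, 0 and 2.08 CPM, or 2 counts in all against 18 in the shallower SCe libraries, and Rtp4 was at most 0.476 CPM against 3.25, 0 and 1.15 CPM. Isg15 was 0.608 to 1.49 CPM against 2.16, 0 and 0 CPM, Ifit3 at most 0.487 and 0.461 CPM, and Zbp1 at 0 but for 5 counts in 1 culture labelled Rptor fl/fl. Without the count filter, the adjusted p was 0.054 for Cxcl10, 0.453 for Rsad2 and 0.279 for Rtp4.

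TE of the 14 members did not differ past the threshold. By edgeR 0 were called in either direction, beside 1.12% higher and 1.81% lower of all 10747 genes tested. DESeq2 also called 0, beside 4.66% higher and 6.56% lower. With 14 members and such small shares, 0 calls says little about the members. At an unadjusted p under 0.05, 2 of the 14 were higher and 0 lower, beside 8.71% and 11.5% of all genes. These were Oas1a (log2 1.47 ± 0.49, adjusted p = 0.129) and Irf9 (1.17 ± 0.49, 0.215). The median log2 difference was 0.52, beside −0.031 over all genes. Bst2 (0.65 ± 0.42, adjusted p = 0.423) and Ifit2 (0.40 ± 0.51, 0.715) had intervals that included 0. Without SCe culture 1 in RNA-seq, Oas1a (log2 1.74, adjusted p = 0.0303), Ifi35 (1.06, 0.0338) and Irf9 (1.44, 0.0462) were called higher, beside 2.64% of all genes. Without it in both assays, which was tried after seeing the data, Bst2 joined them (1.05, 0.018) and the count was 4, beside 8.04% of all genes. Without it in Ribo-seq alone, 1 was higher, beside 3.59%. The labels do not say whether a number names the same culture in both assays. The RNA-seq lines are labelled Rptor fl/fl without RPL22.HA and the Ribo-seq cultures with it, so TE may set different lines against each other. Rptor mRNA was lower in the former than in SCe cultures, whereas Rptor footprints of the latter overlapped with those of SCe cultures. A TE difference can therefore not be told apart from a difference between lines.

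In mice the members were far better covered, and 35 of 36 were tested. Their summed footprints were 2190 to 2334 CPM in WT and 2323 to 2420 CPM in Rptor fl/fl mice, whereas the sums were 256 to 308 CPM in organoid Ribo-seq. The counts of mice include the 5′ region of each mRNA and those of organoids do not, so the 2 sets were not tested against each other. Gbp2 was 71.7, 90.4 and 113 CPM in WT mice and had no footprint in organoids. Oasl2 was 152, 149 and 160 CPM in WT mice and at most 1.43 CPM in organoid cultures. Ifit1 was 98.1, 110 and 105 CPM in WT mice and at most 3.48 CPM in organoid cultures. Leukocyte markers, which were near 0 in organoids, differed between the settings in the same direction (the plot of summed levels). They were not alone in this. Summed stromal, smooth muscle, endothelial, intraepithelial lymphocyte, goblet cell and enterocyte markers were also higher in every mouse than in every organoid Ribo-seq culture. Stem cell markers were lower in mice, and Paneth cell markers overlapped. The part of any of these markers in the levels of the members was not tested.

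**Figure D4:**
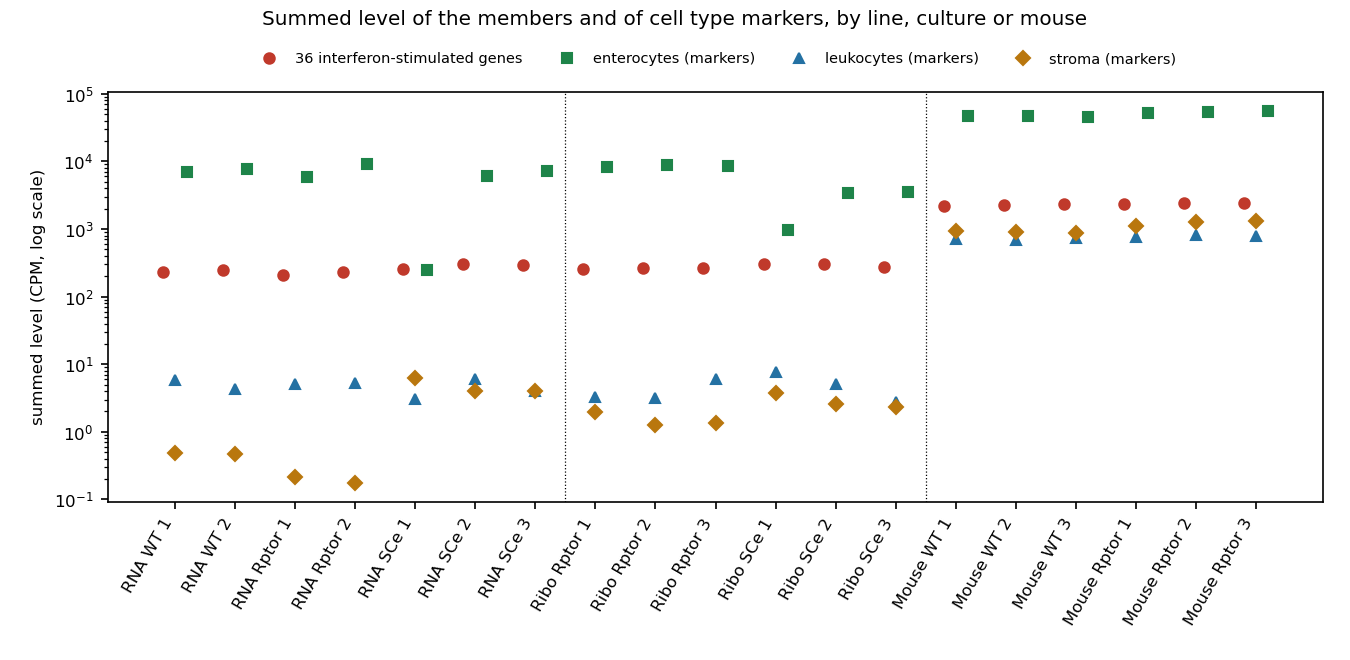
Summed level in CPM (log axis) of the 36 members, of 7 enterocyte, 20 leukocyte and 6 stromal markers, in each RNA-seq line or culture, organoid Ribo-seq culture and mouse. Points are lines, cultures or mice, and dotted lines separate assays that were scaled on their own. The members sum to 210 to 308 CPM in organoids and 2190 to 2420 CPM in mice, and enterocyte markers are lowest in SCe culture 1 of RNA-seq.

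Footprints of Rptor fl/fl against WT mice differed in 6 members, 2 higher and 4 lower, beside 7.47% and 5.97% of all 11515 genes tested. The median log2 difference of the 35 members was −0.10, beside −0.015 over all genes. Zbp1 was 31.4, 41.3 and 44.2 CPM in WT and 72.1, 80.7 and 74.8 CPM in Rptor fl/fl mice, a 1.84-fold difference (log2 0.88 ± 0.12, adjusted p = 0.000115). Irf1 was 224, 241 and 259 CPM in WT and 330, 327 and 374 CPM in Rptor fl/fl mice, 1.41-fold higher (log2 0.50 ± 0.08, adjusted p = 0.00094). For both genes, picked by the test, every Rptor fl/fl mouse lay above every WT mouse, and both passed under every alternative.

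**Figure D5:**
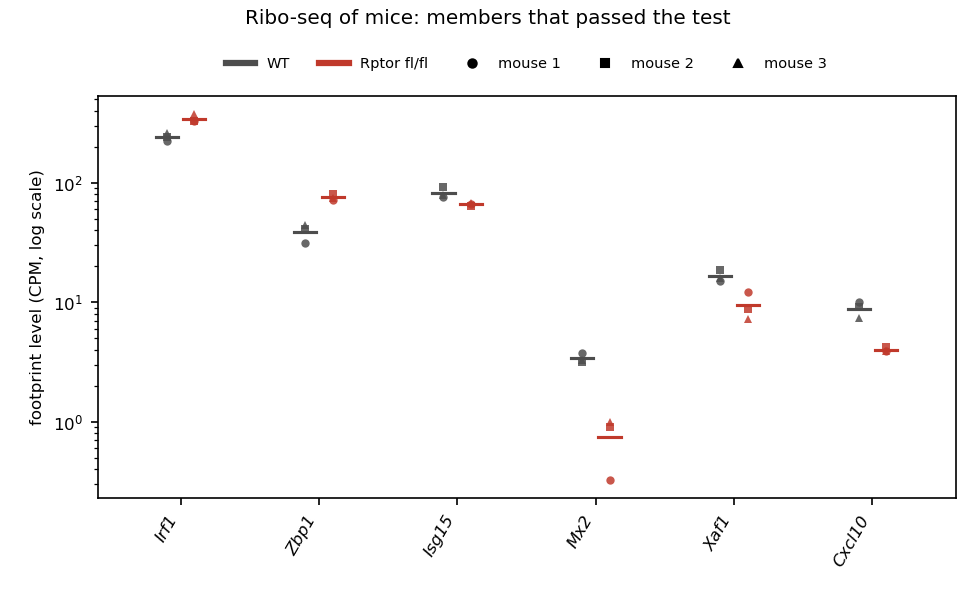
Footprint level in CPM (log axis) of the 6 members that passed the test in mice. Points are mice and bars are group means. Irf1 and Zbp1 lie higher and Isg15, Mx2, Xaf1 and Cxcl10 lower in all 3 Rptor fl/fl mice than in all 3 WT mice.

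The calls of the members lower in Rptor fl/fl mice depended on single mice and on the tool. Cxcl10 was 10.1, 9.09 and 7.45 CPM in WT and 3.93, 4.24 and 3.90 CPM in Rptor fl/fl mice (log2 −1.05 ± 0.27, adjusted p = 0.0183). Xaf1 was 15.1, 18.6 and 16.0 CPM against 12.1, 8.79 and 7.30 CPM (log2 −0.90 ± 0.22, adjusted p = 0.0123). Mx2 was 3.77, 3.18 and 3.27 CPM against 0.328, 0.910 and 1.01 CPM, which is 1 to 18 counts per mouse (log2 −1.95 ± 0.48, adjusted p = 0.0128). Isg15 was 75.5, 92.2 and 78.5 CPM against 66.2, 63.7 and 67.8 CPM (log2 −0.32 ± 0.10, adjusted p = 0.047). The groups did not overlap in any of the 4, which were picked by the test. DESeq2 called none of them (0 lower, 2 higher, beside 3.60% and 5.46% of all genes). Leaving out WT mouse 2 or 3 or Rptor fl/fl mouse 2 or 3 left 1 of the members lower, beside 3.23% to 3.67% of all genes, while leaving out WT or Rptor fl/fl mouse 1 left 3, beside 4.73% and 7.25%. Without WT mouse 3, 4 members were higher, beside 4.59%.

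The other members did not pass in mice. Parp14, at 265, 284 and 309 CPM in WT and 347, 345 and 333 CPM in Rptor fl/fl mice (log2 0.24 ± 0.08, adjusted p = 0.0508), and Ifit2, at 1.26, 2.73 and 5.63 CPM and 9.84, 7.88 and 7.42 CPM (0.94 ± 0.33, 0.0733), had groups that did not overlap. Ifit3 (45.3, 48.2 and 30.7 CPM against 30.2, 26.7 and 27.2 CPM, adjusted p = 0.0724), Oas1g (log2 −0.55 ± 0.18, 0.055) and Oas2 (−1.03 ± 0.34, 0.0619) were just short of the threshold in the lower direction. Ifit1, by contrast, was 98.7, 103 and 91.5 CPM in Rptor fl/fl mice (log2 −0.12 ± 0.09, adjusted p = 0.448). The signalling factors Stat2 (56.6, 65.9 and 66.5 CPM against 57.1, 63.7 and 66.2 CPM) and Irf8 (161, 160 and 152 CPM against 128, 150 and 165 CPM) overlapped, as did Ddx58 (95.6, 92.2 and 101 CPM against 102, 81.6 and 87.7 CPM). Ifih1 was 145, 164 and 147 CPM in WT and 177, 168 and 172 CPM in Rptor fl/fl mice, without overlap (log2 0.17 ± 0.08, adjusted p = 0.191). Ifi35 (138, 127 and 140 CPM against 134, 155 and 144 CPM), Oas1a (70.4, 42.7 and 55.2 CPM against 50.8, 48.5 and 50.6 CPM), Oasl1 (84.3, 99.5 and 86.7 CPM against 101, 108 and 101 CPM) and Usp18 (25.2, 28.2 and 32.3 CPM against 28.2, 32.1 and 33.7 CPM) had adjusted p-values of at least 0.211. Bst2 was 28.9, 27.7 and 22.0 CPM against 16.7, 18.2 and 22.0 CPM (log2 −0.36 ± 0.17, adjusted p = 0.194). The remaining effectors were low: Rsad2 was 7.55, 8.18 and 6.36 CPM against 5.57, 5.76 and 7.80 CPM, Isg20 3.77, 4.09 and 2.00 CPM against 1.97, 1.21 and 4.28 CPM, and Rtp4 22.6, 14.1 and 30.0 CPM against 17.1, 19.1 and 15.0 CPM. The guanylate-binding proteins did not pass, with Gbp7 at 37.7, 43.6 and 55.1 CPM in WT and 40.7, 44.0 and 36.6 CPM in Rptor fl/fl mice and Gbp6 at 43.4 to 60.7 CPM, Gbp3 at 19.6 to 30.2 CPM and Gbp4 at 4.28 to 17.6 CPM over all mice. Mx1, at 0.984 to 3.77 CPM, was not tested.

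Markers of other cell types moved in the same mice, beside 7.47% of all genes called higher and 5.97% lower. Summed leukocyte markers were 685 to 732 CPM in WT and 772 to 823 CPM in Rptor fl/fl mice, and 3 of 19 tested were called higher, the myeloid genes Lyz2 (log2 0.52 ± 0.09, adjusted p = 0.00157), Itgam (0.71 ± 0.14, 0.00281) and Adgre1 (0.68 ± 0.19, 0.0244). Of 6 stromal markers 5 were called higher, and their sum was 883 to 942 CPM in WT and 1123 to 1325 CPM in Rptor fl/fl mice. Intraepithelial lymphocyte markers summed to 297 to 333 CPM in WT and 254 to 272 CPM in Rptor fl/fl mice, with 0 of 6 called by edgeR and 2 lower at an unadjusted p under 0.05. Of 5 Paneth cell markers tested 3 were lower and of 5 stem cell markers 2, and their sums were 550 to 576 CPM in WT and 347 to 529 CPM in Rptor fl/fl mice for the stem cell markers. Goblet cell markers (3 of 5), epithelial markers (3 of 7) and enterocyte markers (3 of 7, with 1 lower) were called higher, as were 2 of 4 endothelial markers, whose sum was 49.1 to 64.1 CPM in WT and 76.4 to 79.1 CPM in Rptor fl/fl mice. Of 4 smooth muscle markers 1 was higher and 1 lower. The part of these markers in the differences of Zbp1, Irf1, Cxcl10, Isg15, Mx2 and Xaf1 was not tested.

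The wider pathway was read from lists of genes outside the 36. Of 10 genes of receptors, kinases and STAT3, 3 were higher and 5 lower in SCe than in WT organoids, beside 22.4% and 19.9% of all genes. The 4 with the smallest adjusted p were Ifngr2 (log2 −0.74, adjusted p = 0.00218), a chain of the type II interferon receptor, Il10rb (−0.79, 0.00255) and Ifnlr1 (−0.99, 0.0106), the chains of the type III receptor, and Ifnar2 (0.83, 0.0114), a chain of the type I receptor. The type III receptor chains were higher in Rptor fl/fl organoids, Ifnlr1 by 0.83 (adjusted p = 0.0117) and Il10rb by 0.41 (0.0193) on the log2 scale over WT, where 2 of 10 were higher and none lower at that threshold, with 3 higher and 2 lower at an unadjusted p under 0.05. Over all genes, 11.6% were higher and 11.0% lower in that comparison. In mice Stat3 (0.44, 0.00136) and Jak1 (0.27, 0.024) were higher, beside 7.47% of all genes.

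Of 12 genes of the sensor pathway, which links nucleic acid sensing to interferon, 6 were lower in SCe than in WT organoids, beside 19.9% of all genes. The first 4 were Ticam1 (TRIF, the adaptor of TLR3; log2 −1.42, adjusted p = 0.00169), Mavs (the adaptor of RIG-I and MDA5; −1.0, 0.00595), Irf3 (−0.76, 0.00918) and Ikbke (−0.88, 0.0149). In Rptor fl/fl against WT organoids 4 were higher, beside 11.6% of all genes, namely the kinase gene Ikbke (0.71, 0.0101), Trim25 (0.38, 0.0166), Tlr3 (0.67, 0.0207) and Cgas (0.32, 0.0488).

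Of 6 negative regulators, Irf2 (log2 −0.94, adjusted p = 0.00523) and Ptpn2 (−0.48, 0.0182) were lower and Pias1 (0.40, 0.0118) higher in SCe than in WT organoids, and Socs3 (0.88, 0.0277) was higher and Ptpn2 (−0.37, 0.0247) lower in Rptor fl/fl than in WT organoids. Of 51 further interferon-induced genes, 38 were tested between SCe and WT organoids, with 15 higher and 4 lower, beside 22.4% and 19.9% of all genes, and a median log2 difference of 0.77. The first 4 were Ifi27 (3.73, 0.00121), Dtx3l (−0.74, 0.00254), Ifi27l2b (−1.03, 0.00267) and Psmb10 (−2.44, 0.00338). Between Rptor fl/fl and WT organoids 36 were tested, with 3 higher and 4 lower, beside 11.6% and 11.0%, among them Ifitm2 (−0.60, 0.0153), Ifitm3 (−1.49, 0.0211), Pml (0.54, 0.0311) and Gbp8 (adjusted p = 0.0161), which had 2 counts summed over WT lines and 141 over Rptor fl/fl lines, a ratio of 66.4 with an exact 95% counting interval of 18.0 to 554. In mice 41 were tested, with 5 higher and 5 lower, beside 7.47% and 5.97%. Here Ifit1bl1 (0.61, 0.000127), Ifitm1 (1.19, 0.00021) and Ifitm3 (0.59, 0.000368), of which the IFITM proteins restrict virus entry, were higher and Tgtp2 (−0.88, 0.0011) lower.

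Between Rptor fl/fl and SCe organoids, 21.0% of all genes were higher and 21.8% lower in mRNA, and the lists stood beside these shares as follows. Of the receptors and kinases 5 were higher and 2 lower, led by Il10rb (log2 1.22, adjusted p = 0.00107), Ifnlr1 (1.84, 0.00194), Ifngr2 (0.64, 0.00322) and Jak1 (−0.59, 0.00647). Of the sensor pathway 8 of 12 were higher, led by Ticam1 (1.27, 0.00174), Ikbke (1.62, 0.00281), Trim25 (0.47, 0.00478) and Tlr3 (0.72, 0.00583). Of the negative regulators Irf2 (0.91, 0.00529) and Socs3 (0.99, 0.00604) were higher and Pias1 (−0.31, 0.0378) lower. Of the further induced genes 9 were higher and 17 lower, led by Ifi27 (−3.36, 0.00107), Ifitm2 (−1.60, 0.00202), Dtx3l (0.82, 0.00211) and Gbp8 (0.00211; 141 counts over Rptor fl/fl lines against 6 over SCe cultures).

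In footprints of the same comparison, Irf2 (1.27, 0.00197) and Ptpn6 (0.84, 0.0206) were the negative regulators higher in cultures labelled Rptor fl/fl, and Eif2ak2 (0.85, 0.0409), which encodes the kinase PKR, was higher in the sensor pathway. Of 19 further induced genes tested 3 were higher and 5 lower, beside 6.63% and 9.84% of all genes, led by Ifi27 (−2.34, 0.00147), Psmb10 (1.91, 0.00282), Ifitm3 (−1.83, 0.00434) and Ifitm1, whose footprints summed to 5 counts in cultures labelled Rptor fl/fl and 318 in SCe cultures (adjusted p = 0.00147). In TE, Il10rb alone among the 4 lists passed (log2 −1.56, adjusted p = 0.00682).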

How the data were processed

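Total RNA of organoids and ribosome footprints of organoids and mice, from HA pulldown of tagged ribosomes, were sequenced in 23 libraries of 7 groups. The authors trimmed reads with cutadapt 1.18 and ran Salmon 1.1.0 on GENCODE vM21 sequences (mm10), per the labels and the methods of the study, and deposited estimated counts for each sequence. The deposited TPM values, which Salmon made for the authors by dividing by effective length within a library, were used only to rank members in RNA-seq. A deposited table of the authors' own TE comparison, with ratios, log2 changes and p-values per gene, was not used.

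Estimated counts were summed per gene and over technical libraries of a line and rounded, leaving out the separate 5′ entries of organoid Ribo-seq. Each comparison was fitted over all genes with edgeR 4.0.16 (quasi-likelihood test, TMM, filterByExpr, R 4.3.3) on the groups compared, with Benjamini-Hochberg adjustment and a threshold of 0.05. TE was tested as the assay-by-group term of 1 model over both kinds of library. The test was run on simulated data first. The 36 members and all gene lists were chosen with earlier results of these data known. Some genes of the wider pathway are not reported here and are left out of its list counts. All members are named, with values in every sample for those past the threshold in at least 1 of 6 comparisons and the 6 highest by TPM, and 4 genes per list by adjusted p. Ptprc, Lgr5, Dcn, Lum and the called markers were singled out after their values were seen.

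Alternatives were DESeq2 1.42.0, RLE scaling, no count filter, library sizes computed after dropping the 10 most counted genes, each replicate left out, the replicate number as a block, 1 fit over the RNA-seq groups, technical libraries kept apart, and near-identical copies summed (Ifit3 with Ifit3b, Oas1a with Oas1g, Gbp6 with Gbp10 and Gbp11), whose reads the authors' counting could split. Leaving SCe replicate 1 out of both assays was added after seeing the data. Intervals of count ratios cover counting error only. Fragments without molecular identifiers are not independent molecules. Promoter windows came from RefSeq (GRCm38.p6). Figures were drawn with matplotlib 3.10.9.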

Additional observations from a re-analysis of the deposited data

Results flagged for a closer look

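Irf1 was lower in both Rptor fl/fl organoid lines than in both WT lines in RNA-seq (log2 −0.49) and higher in all 3 Rptor fl/fl mice than in all 3 WT mice in Ribo-seq (log2 0.50). The levels of Ifit2 lay on the same sides, with log2 differences of −0.51 in organoid mRNA and 0.94 in mouse footprints, as did those of Zbp1, at −0.99 in organoids, where it could be fitted only without the count filter, and 0.88 in mice. Cxcl10 lay on the opposite sides, at 0.69 in organoid mRNA and −1.05 in mouse footprints, and so did Ifit3, at 0.89 in organoids without the count filter and −0.49 in mice. In organoids, where the groups hold 2 lines each, Irf1, Ifit2 and Cxcl10 did not pass the main test, and Zbp1 and Ifit3 were not tested. Without the count filter Irf1 passed there (adjusted p = 0.0447) and the others did not. In mice Irf1, Zbp1 and Cxcl10 passed. Groups separated in opposite directions in 3 of the 25 members tested in both comparisons, namely Irf1, Ifit2 and Cxcl10. The share among the 10644 genes tested in both was 12.1%, so the members separated this way no more often than genes in general. Zbp1 and Ifit3 are not among the 25. The difference between the settings was not tested, since the assay, the Cre driver and the tissue differ as well.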

How the results depend on the processing

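Of the 39 calls of members over the comparisons, 10 passed under every alternative, namely Bst2, Rsad2 and Oasl1 between SCe and WT organoids, Bst2, Rsad2, Ifit2 and Oasl1 in mRNA and Bst2 in footprints between Rptor fl/fl and SCe organoids, and Irf1 and Zbp1 in mice. None reversed, and of 495 alternative fits of called members 370 stayed past the threshold and 125 fell short. Shares in brackets are those of all genes tested in the same setting. Between Rptor fl/fl and WT organoids, DESeq2 gave 0 members higher (13.4%) and 1 lower (12.9%). The fit over all 3 RNA-seq groups gave 0 higher (5.42%). No count filter gave 1 lower (8.64%), which was Irf1 (log2 −0.49, adjusted p = 0.0447). Technical libraries as replicates gave 5 lower (27.6%). The latter setting gave 19 higher between SCe and WT organoids (31.7%). In mRNA between Rptor fl/fl and SCe organoids it gave 2 higher (29.6%) and 20 lower (31.4%), and in TE 1 higher (5.06%). The fit over 3 groups gave 2 higher in that mRNA comparison (24.4%). Without SCe replicate 1 of both assays, 4 were higher in TE (8.04%). In mice, no count filter gave 4 higher (5.85%) and DESeq2 0 lower (3.60%).

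With the replicate block, 1 member was lower between Rptor fl/fl and WT organoids, beside 16.9% of all genes tested. Between SCe and WT organoids 8 were higher and 1 lower, beside 11.7% and 9.39%. There Stat2, Irf1, Zbp1, Isg15, Oas1a and Isg20 fell short, with adjusted p-values of 0.0561 to 0.198. Between Rptor fl/fl and SCe organoids 4 were lower in mRNA, beside 11.5%, and 1 in footprints, beside 6.58%. Counts of the other comparisons stayed within 1.5 times. Same-numbered samples deviated together with correlations of 0.19 to 0.33 over genes in RNA-seq, where at most 2 pairs exist, −0.10 to 0.077 in organoid Ribo-seq and −0.045 to 0.028 in mice, and the labels do not say that a number marks a shared animal, batch or day. The methods of the study mention paired samples without saying which libraries form a pair, so the block was kept as an alternative.

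Leaving out 1 replicate at a time gave 0 members higher and 0 to 1 lower between Rptor fl/fl and WT organoids (median log2 difference −0.19 to 0.029), 2 to 24 higher and 1 to 4 lower between SCe and WT (0.94 to 1.48), 1 to 2 higher and 3 to 23 lower in mRNA (−1.62 to −0.92) and 0 to 2 higher and 1 to 3 lower in footprints (−0.0087 to 0.34) between Rptor fl/fl and SCe organoids, 0 to 3 higher in TE (0.46 to 0.66), and 2 to 4 higher and 1 to 3 lower in mice (−0.17 to −0.081). The cause of these changes was not tested. Depth limits the footprints: 1 read was worth 0.122 to 0.853 CPM in organoid Ribo-seq and up to 1.26 CPM in mice.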
